A study of Mus musculus with 4 samples.

Results

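Ago2-bound features of the cyclin genes Ccnd2 and Ccne2, of the retinoblastoma gene Rb1 and of the mitotic kinase gene Wee1 were examined in transformed mouse B cell progenitors. Every feature listed under these 4 gene names was taken, which gave 8 features of the 2548 in the authors' deposited table: 3 of Ccnd2, 2 of Ccne2, 1 of Rb1 and 2 of Wee1. Features of a gene are numbered here from the highest deposited mean to the lowest. Ago2 binds microRNAs and their target transcripts, and PAR-CLIP recovers the RNA that was crosslinked to it through 4-thiouridine that the cells had built into their RNA. The cells were lines made from C57BL/6 fetal liver of embryonic day 14.5 by a retrovirus that carries the Abelson kinase, with 2 libraries from wild-type lines and 2 from Bim3'UTRmut/mut lines. Bim, the product of Bcl2l11, promotes apoptosis, and the question of the comparison is which Ago2-bound features differ once its 3' UTR is mutated on both alleles. All 4 libraries share the viral kinase, the genetic background and the thiouridine labelling.

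D-type cyclins such as cyclin D2 activate CDK4 and CDK6, which begin to phosphorylate the retinoblastoma protein. Cyclin E2 with CDK2 completes this step, E2F transcription factors are then released, and the cell enters S phase. WEE1 acts later: it phosphorylates CDK1 and so holds back mitosis. In B cell progenitors cyclin D2 is induced by growth signals, and transcripts of this pathway are textbook targets of microRNAs that restrain or favour division.

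Mature microRNAs of 3 seed families are shown because members of each are known to target these genes in other cells: the miR-17 family Rb1, the miR-15/16 family Wee1 and the cyclins, and miR-26 both Ccnd2 and Ccne2. Sequences are from RefSeq, build GRCm38.p6, and capitals mark the seed, bases 2 to 8, which pairs with the target.
miR-17-5p: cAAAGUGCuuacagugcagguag
miR-20a-5p: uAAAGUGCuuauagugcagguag
miR-15a-5p: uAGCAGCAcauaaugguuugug
miR-16-5p: uAGCAGCAcguaaauauuggcg
miR-26a-5p: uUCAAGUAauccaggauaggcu
The first pair shares a seed with 7 mature microRNAs in all and lies on the plus strand at chr14:115043684-115043706 and chr14:115044183-115044205. The next pair shares a seed with 10, and miR-15a-5p lies on the minus strand at chr14:61632075-61632096. A target site for the miR-17 seed reads GCACUUU, for the miR-15/16 seed UGCUGCU and for the miR-26 seed UACUUGA. Feature sequences and positions were not analysed here, so no member is assigned to any of these families, nor to an exon or UTR.

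The deposited means could be resolved into whole reads of each library. Wa and Wb name the libraries that the authors' comparison treats as wild type, Ma and Mb those it treats as mutant; which replicate each is remains unknown. Total reads in all features ran from 14539 in Mb to 160207 in Wa, and normalized reads are reads divided by the authors' size factor of that library. Each library's value is given with its exact 95% Poisson interval, which covers counting error alone; reads may include PCR copies. Mb stood apart: across features its log2 normalized reads correlated with the other libraries at 0.14 to 0.26, against 0.74 to 0.83 among Wa, Wb and Ma. Of 17 B lineage markers 8 were in the table. Their summed normalized reads were 176 (Wa), 175 (Wb) and 206 (Ma), but 4.42 in Mb, where every one but Bach2 was at 0, Ikzf1, Irf4, Rag1 and Il7r included. Of 8 hepatocyte and stromal markers, only Vim and Pdgfra were in the table, and none of the hepatocyte genes Alb, Afp and Ttr. Vim and Pdgfra were at 4.08 to 9.71 summed normalized reads in the other libraries and 201 in Mb. None of 5 erythroid and none of 5 myeloid markers matched a feature. The part of these marker differences in the results below was not tested; fits without Mb are given for each of the 8 features, and the main counts also without it. In such bulk libraries fewer cells of a type cannot be told apart from less RNA per cell, nor less Ago2 binding from less transcript, since no RNA levels were used.

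The 8 features together held 949 (Wa) and 321 (Wb) wild-type reads and 77 (Ma) and 105 (Mb) mutant-side reads. That was 0.592%, 0.827%, 0.313% and 0.722% of each library. In Mb, 5 of the 8 features had fewer than 5 reads, and in Ma 4, so the mutant side limits every comparison.

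**Figure D1:**
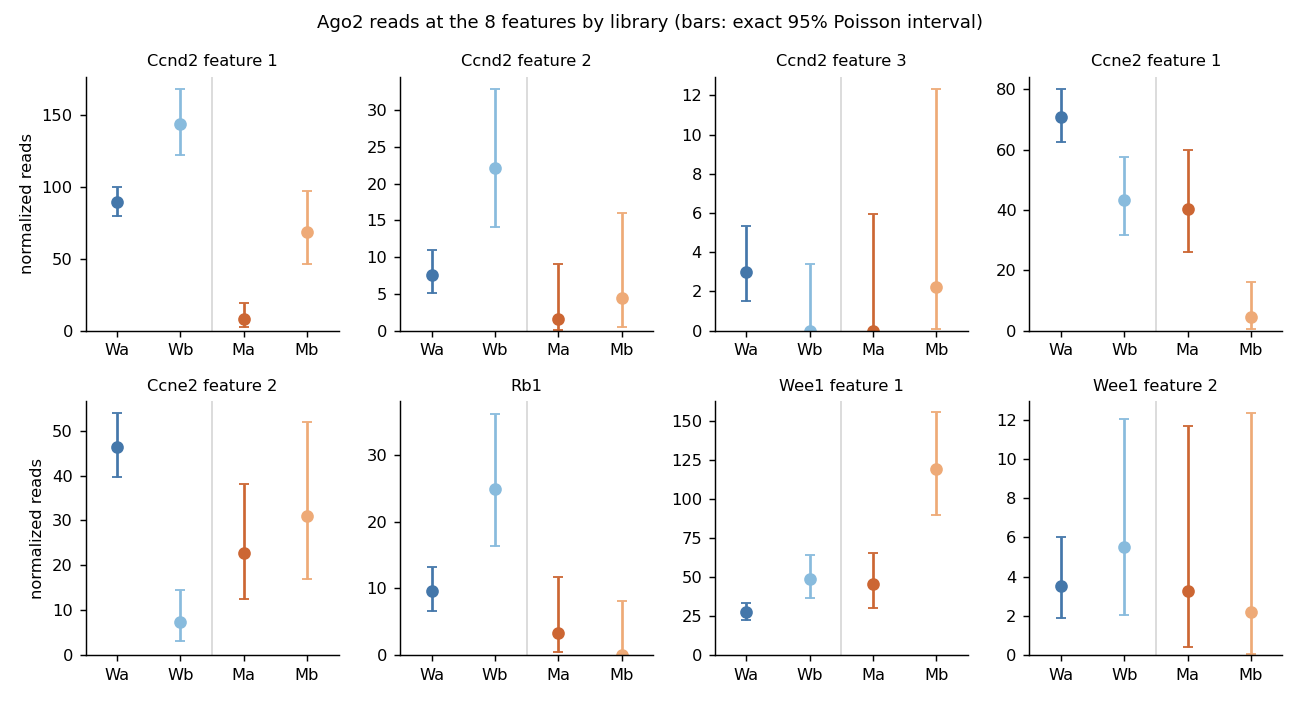
Normalized reads (y axis, linear, a scale of its own in each panel) at each of the 8 features in libraries Wa and Wb (wild type) and Ma and Mb (mutant), with exact 95% Poisson intervals. Ccnd2 features 1 and 2, Ccne2 feature 1, Rb1 and Wee1 feature 2 have both mutant-side points below both wild-type points, and Wee1 feature 1 is highest in Mb at 119.

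Cyclin D2 was bound by Ago2 mainly at 1 feature, which was lower in both mutant-side libraries than in either wild-type library. At Ccnd2 feature 1 the wild-type libraries held 329 (Wa) and 156 (Wb) reads and the mutant-side libraries 5 (Ma) and 31 (Mb). After normalization Wa was at 89.4 (interval 80.0 to 99.6) and Wb at 144 (122 to 168), while Ma was at 8.09 (2.63 to 18.9) and Mb at 68.5 (46.6 to 97.3). The groups did not overlap, but the mutant-side libraries lay further from each other than Mb lay from Wa, and the intervals of Mb and Wa overlapped. The wild-type mean of 117 was 3.04-fold the mutant mean of 38.3. The log2 fold change that the authors' deposited table gives, mutant over wild type, is -1.42, with a 95% interval of -3.34 to 0.50. The difference did not pass: the Benjamini-Hochberg adjusted p of the DESeq2 values was 0.836.

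Ccnd2 feature 2 repeated this order at a lower level. Its wild-type reads were 28 (Wa) and 24 (Wb), and its mutant-side reads 1 (Ma) and 2 (Mb). Normalized, Wa was at 7.61 (5.06 to 11.0) and Wb at 22.1 (14.2 to 32.9), with Ma at 1.62 (0.0410 to 9.02) and Mb at 4.42 (0.535 to 16.0). The groups did not overlap, although the intervals of Wa reached into those of both mutant-side libraries. The authors' deposited table puts it at -1.91 on the log2 scale (interval -4.17 to 0.36), and its adjusted p by Benjamini-Hochberg over all features was 0.710. Ccnd2 feature 3 had only 12 reads over the libraries, 11 of them in Wa and 1 in Mb, too few to compare. The intervals at the counts of 0 reach 3.40 normalized reads in Wb and 5.97 in Ma, past the 2.99 of Wa.

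Summed over its features, Ccnd2 had 100.0 (Wa, 90.0 to 111) and 166 (Wb, 142 to 192) normalized reads in the wild type and 9.71 (Ma, 3.56 to 21.1) and 75.2 (Mb, 52.1 to 105) on the mutant side. Ma was below every other library. The division of the reads among the features was alike at this depth: feature 1 took 89.4% of them in Wa (Wilson 95% interval 85.8 to 92.2), 86.7% in Wb (80.9 to 90.9), 83.3% in Ma (43.6 to 97.0) and 91.2% in Mb (77.0 to 97.0). All these intervals overlap, and that of Ma rests on 6 reads.

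Cyclin E2 had a pair of features that behaved differently in Mb. Ccne2 feature 1 was read 261 (Wa) and 47 (Wb) times in the wild type and 25 (Ma) and 2 (Mb) times on the mutant side. Normalized, Wa was at 70.9 (62.6 to 80.1), Wb at 43.3 (31.8 to 57.6), Ma at 40.5 (26.2 to 59.7) and Mb at 4.42 (0.535 to 16.0). The groups did not overlap, yet Ma lay next to Wb and only Mb was far below. In the authors' deposited table this is a log2 fold change of -1.17 (interval -3.10 to 0.76), on a wild-type mean of 57.1 and a mutant mean of 22.4. Its Benjamini-Hochberg adjusted p from the DESeq2 fit was 0.979.

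Ccne2 feature 2 was read 171 (Wa) and 8 (Wb) times in the wild type and 14 times in each mutant-side library. Its normalized reads were 46.5 (39.8 to 54.0) for Wa, 7.37 (3.18 to 14.5) for Wb, 22.7 (12.4 to 38.0) for Ma and 31.0 (16.9 to 51.9) for Mb. Both mutant-side libraries lay between the wild-type ones, and the means were 26.9 for wild type and 26.8 for mutant. The authors' deposited table puts the log2 difference at -0.03 (interval -1.93 to 1.87), so changes of up to either bound are compatible with these libraries.

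The share of Ccne2 reads in feature 1 was 60.4% (Wilson 55.7 to 64.9) for Wa and 85.5% (73.8 to 92.4) for Wb, and 64.1% (48.4 to 77.3) for Ma and 12.5% (3.50 to 36.0) for Mb. The interval of Mb lay below all others, and that of Wb above that of Wa. The shares of the gene's features thus differed between libraries of a genotype, on 16 reads in Mb and 55 in Wb. Over both features Ccne2 had 117 (Wa) and 50.7 (Wb) normalized reads in the wild type and 63.1 (Ma) and 35.4 (Mb) on the mutant side, and here the groups overlapped.

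**Figure D2:**
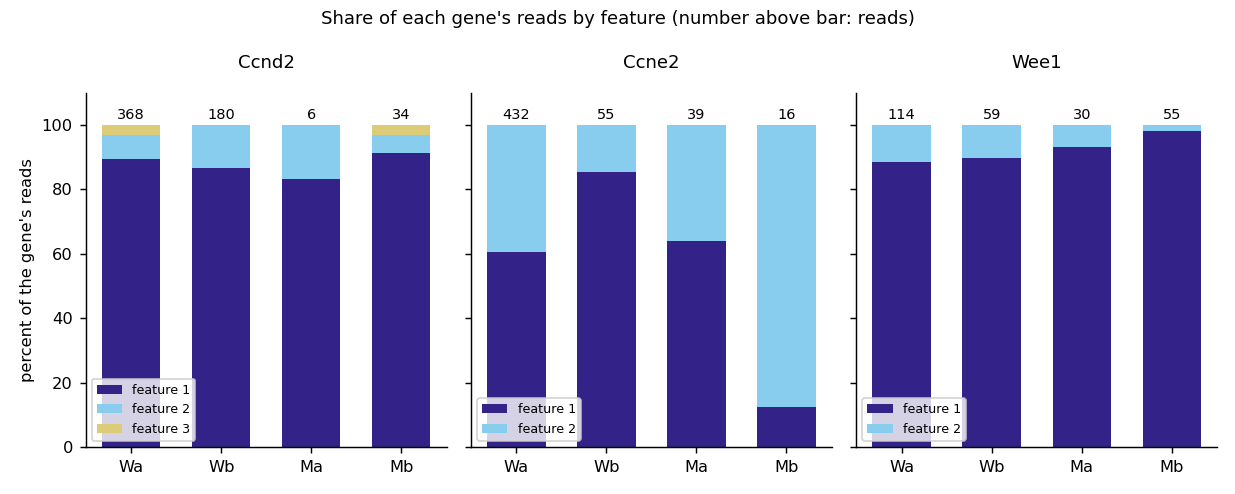
Percent of each gene's recovered reads (y axis, from 0) that fell in each of its features, by library, with the gene's reads above each bar. Feature 1 holds 83.3% to 91.2% of Ccnd2 reads and 88.6% to 98.2% of Wee1 reads, while for Ccne2 it ranges from 12.5% in Mb to 85.5% in Wb.

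Rb1, whose protein holds E2F factors inactive until it is phosphorylated, had the lowest log2 fold change of the 8 features. Its single feature was read 35 (Wa) and 27 (Wb) times in the wild type and 2 (Ma) and 0 (Mb) times on the mutant side. After normalization Wa was at 9.51 (6.62 to 13.2), Wb at 24.9 (16.4 to 36.2) and Ma at 3.24 (0.392 to 11.7). Mb was at 0 (0 to 8.16). The groups did not overlap, but the intervals of both mutant-side libraries overlapped that of Wa; neither reached that of Wb. The value of -2.58 in the authors' deposited table (interval -5.04 to -0.11) was the 13th lowest of all 2548, with p = 0.0405 before adjustment. It did not pass after Benjamini-Hochberg adjustment of the DESeq2 p-values, at 0.561.

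Wee1 feature 1 was the only one of the 8 features above 0. It was read 101 (Wa) and 53 (Wb) times in the wild type and 28 (Ma) and 54 (Mb) times on the mutant side. Normalized, Wa was at 27.4 (22.4 to 33.4), Wb at 48.8 (36.6 to 63.9), Ma at 45.3 (30.1 to 65.5) and Mb at 119 (89.7 to 156). Mb was above every other library, whereas Ma lay between the wild-type ones, so the groups overlapped. The mutant mean of 82.4 was 2.16-fold the wild-type mean of 38.1. This was a log2 fold change of 1.03 by the authors' deposited table (interval -0.54 to 2.60), which did not pass by Benjamini-Hochberg adjustment of the DESeq2 p, at 0.930. Wee1 feature 2 was read 13 (Wa), 6 (Wb), 2 (Ma) and 1 (Mb) times. Its normalized reads of 3.53, 5.53, 3.24 and 2.21 did not overlap between the groups, but all intervals did. In the authors' deposited table it was at -0.54 (interval -2.95 to 1.87), below 0 unlike feature 1. Feature 1 took 88.6% (Wa), 89.8% (Wb), 93.3% (Ma) and 98.2% (Mb) of Wee1 reads, with overlapping Wilson intervals.

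Read against the whole table, 0 of the 8 features passed an adjusted p of 0.05 (Benjamini-Hochberg on the DESeq2 p-values, background 0%, 0 of 2548). At an unadjusted p under 0.05 the count was 1 of 8, Rb1, lower in the mutant, where 0.903% of all features were lower, 7.57% higher and 8.48% different in either direction. limma's voom, fitted to the recovered reads of all features, also passed 0 of 2548 and put none of the 8 under an unadjusted p of 0.05, where it put 0.157% of all features as lower and 2.94% as higher. The groups did not overlap, with the mutant lower, at 5 of the 8 features. The same held for 511 of all features, or 20.1%. A feature with 0 reads in a wild-type library cannot show this order, and 181 (Wa) and 461 (Wb) of all features had 0. The share was not taken among better-read features. With the mutant higher, groups did not overlap at 0 of the 8 and at 13.1% of all features. An exact two-sided permutation test of 2 against 2 libraries cannot go below p = 0.333, so none is given for single features. Log2 fold changes below 0 were seen at 7 of the 8 features, with a median of -0.85, against 52.5% of all features and a median of -0.07. Among the 1426 features with at least 20 reads, which include 7 of the 8, 61.9% lay below 0, with a median of -0.27. Without Mb, voom put 6 of the 8 below 0 and 47.6% of all features it fitted. Ma alone lay below both wild-type libraries at 5 of the 8 and at 36.3% of all features, again whatever their reads.

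Libraries of a side differed by more than counting error at many of these features. The Poisson intervals of Wa and Wb lay apart at 6 of the 8, all but Ccnd2 feature 3 and Wee1 feature 2, against 14.9% of all features. Those of Ma and Mb lay apart at 3, namely Ccnd2 feature 1, Ccne2 feature 1 and Wee1 feature 1, against 18.7% of all features. Relative counting error is smaller at better-read features, so these shares depend on reads per feature. The mutant-side libraries pointed to different genes: Ccnd2 feature 1 was low in Ma, at a log2 ratio of -3.77 to the wild-type mean, and at -0.76 in Mb. Ccne2 feature 1 was near the wild type in Ma, at -0.49, and low in Mb, at -3.55. Rb1 was low in both, at -2.24 and -5.14, the latter resting on the 0.5 added to a count of 0. Over all features these log2 ratios had a median of -0.15 in Ma and -0.29 in Mb, and over those with at least 20 reads of -0.20 and -0.80.

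**Figure D3:**
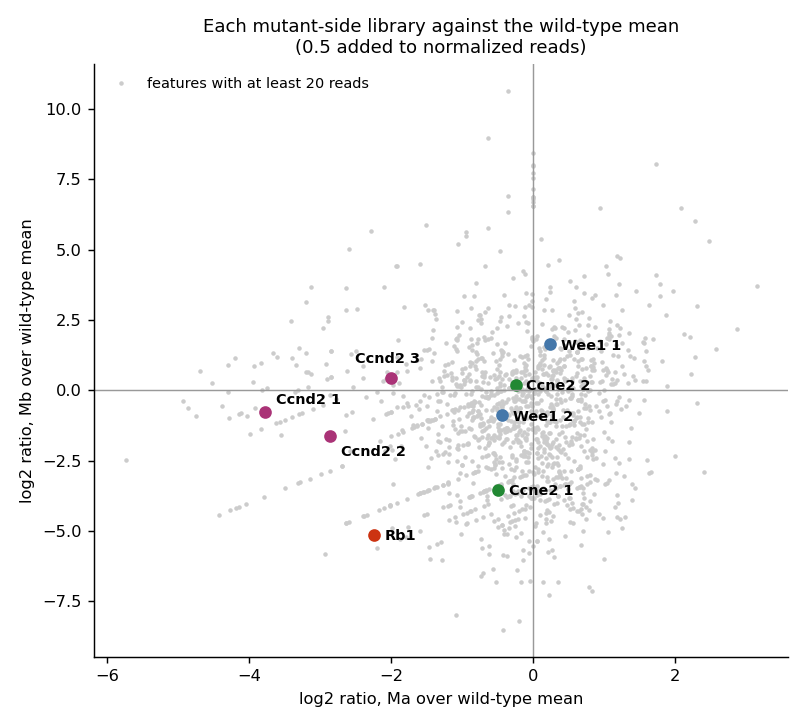
Log2 ratio to the wild-type mean in Ma (x axis) and in Mb (y axis), with 0.5 added to normalized reads, for features with at least 20 reads (grey) and the 8 features named (coloured; Ccnd2 feature 3 has 12 reads). Ccnd2 features 1 and 2 lie to the left, low in Ma. Ccnd2 feature 3 also lies left, but there the Ma value rests on the 0.5 added to a count of 0, as it does in Wb. Ccne2 feature 1 lies low in Mb at -3.55, and Rb1 lies low on both axes.

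With all 4 libraries, voom gave log2 fold changes of -2.23 for Ccnd2 feature 1 and -1.79 for Ccne2 feature 1. It gave -2.79 for Rb1 and 1.00 for Wee1 feature 1. These values, rather than the deposited ones shrunken toward 0, are the like comparison for voom with fewer libraries. The same features were fitted without a mutant-side library. With Mb left out, voom gave Ccnd2 feature 1 a log2 fold change of -3.64 (standard error 0.82, adjusted p = 0.983, and 0.695 to 1.00 over its alternatives). Its unadjusted p of 0.00532 was among the 0.165% of features that this fit put below 0 with p under 0.05, beside 1.37% above 0. With Ma left out it was -0.66. Ccne2 feature 1 went the other way, from -3.38 without Ma (adjusted p = 0.0793 by voom, 0.0793 to 1.00 over its alternatives) to -0.47 without Mb. Rb1 was at -3.70 without Ma and -1.84 without Mb. Wee1 feature 1 was at 1.77 without Ma and 0.37 without Mb. Without Ma, Ccne2 feature 1 and Wee1 feature 1 had unadjusted p of 0.0128 and 0.0301 by voom, but that fit put 4.52% of all features below 0 and 18.6% above 0 at p under 0.05 and passed 14% after adjustment. Ccnd2 feature 2 was at -1.11 and -2.33, and Wee1 feature 2 at -0.44 and -0.17, without Ma and without Mb. In the same order Ccne2 feature 2 was at 0.53 and 0.10, and Ccnd2 feature 3 at 0.57 and -1.34. In these fits the lone mutant-side library was assumed to vary like the other group, and none of the 8 features passed an adjusted p of 0.05.

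**Figure D4:**
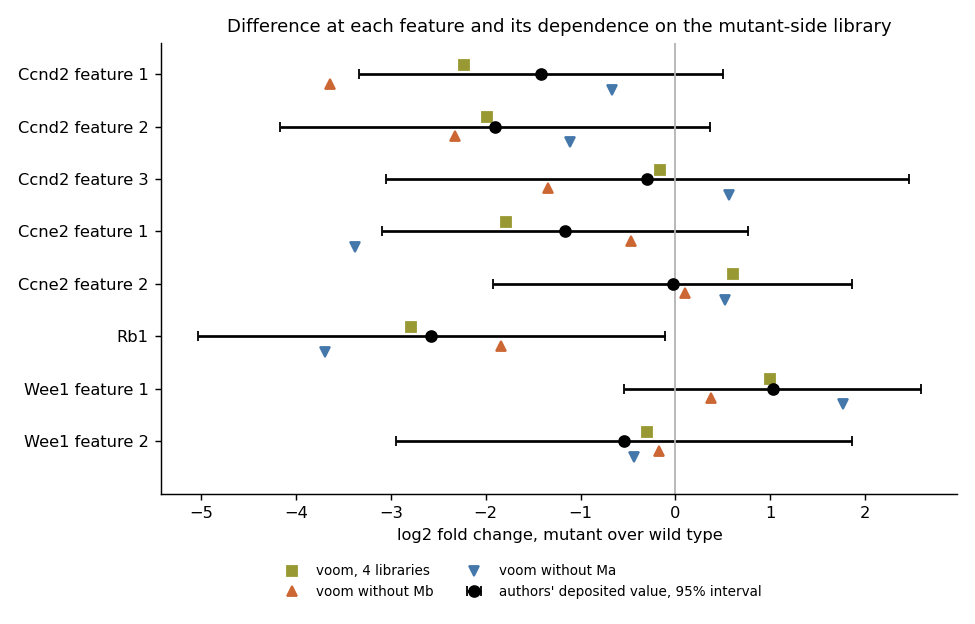
Log2 fold change, mutant relative to wild type (x axis), at the 8 features: the authors' deposited value with its derived 95% interval (black), and voom on recovered reads with 4 libraries, without Mb and without Ma. Only the interval of Rb1, -5.04 to -0.11, lies off 0, and the points without Ma and without Mb lie far apart for Ccnd2 feature 1 and Ccne2 feature 1.

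Other genes of the cell cycle were set beside these. Of 59 listed genes 20 had features, 29 in all, of which 23 had a deposited log2 fold change below 0 and 6 above, with a median of -0.43. None passed an adjusted p of 0.05, and 1, Rb1, had an unadjusted p under 0.05. Without the 4 genes, 16 of 21 features lay below 0, with a median of -0.39, and 0 had an unadjusted p under 0.05. Deposited values below 0 made up 52.5% of all features, and 61.9% of those with at least 20 reads. Groups did not overlap, with the mutant lower, at 7 of these 21 features, or 33.3%, beside 20.1% of all features. With the mutant higher they did not overlap at 1, the weaker feature of E2f1, beside 13.1% of all features. Ma lay below the wild-type mean at 12 of the 21 and Mb at 16, beside 1410 (Ma) and 1389 (Mb) of all 2548 features. Without Mb, voom put 11 of the 21 below 0, with a median of -0.12, beside 47.6% of all features it fitted. Ma alone lay below both wild-type libraries at 11 of the 21, beside 36.3% of all features. Neither this share of all features nor the 20.1% was matched for reads. Of 19 direct partners of the 4 gene products, 9 had features, 12 in all, and 8 of these lay below 0, as did 8 of the 12 by voom without Mb.

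Among partners of the cyclins, Cdk2, the kinase that cyclin E2 activates, had -0.31 in the authors' deposited table, on a mean of 3.50 normalized reads. The CDK inhibitor p21, encoded by Cdkn1a, held 19.6 (Wa), 24.0 (Wb), 17.8 (Ma) and 17.7 (Mb) normalized reads. The groups did not overlap, with the mutant lower, and the log2 difference in the authors' deposited table was small, at -0.27. Cdkn1b, which encodes the inhibitor p27, was split within each side: 279.9 (Wa) and 71.9 (Wb), and 298 (Ma) and 33.2 (Mb) normalized reads. The authors' deposited table puts its log2 fold change at -0.07.

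The pocket protein relatives of Rb1 had few reads. Rbl1 had 0.45 and Rbl2 -0.51 in the authors' deposited table, beside the -2.58 of Rb1. Rbl1 was read 0 (Ma) and 4 (Mb) times on the mutant side, and without Mb its direction turned: voom then gave -1.73 for Rbl1, -0.96 for Rbl2 and -1.84 for Rb1. Differences between these genes were not tested. E2f1 is the activating factor that the retinoblastoma protein binds. Its stronger feature held 80.2 (Wa), 95.8 (Wb), 64.7 (Ma) and 57.5 (Mb) normalized reads, at -0.50 in the authors' deposited table. Its weaker feature had the opposite sign in the authors' deposited table, at 0.72, with 6.25, 3.68, 11.3 and 6.63 normalized reads. E2f3 had features at 0.08, -1.87 and -0.17 in the authors' deposited table, the second with 12.8 (Wa), 28.6 (Wb), 8.09 (Ma) and 0 (Mb) normalized reads. E2f2 had -1.09 in the authors' deposited table, on a mean of 1.82 normalized reads. Cdc25a, the phosphatase that reverses inhibitory phosphorylation of CDKs, had 0.26 in the authors' deposited table, beside 1.03 at the stronger Wee1 feature.

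**Figure D5:**
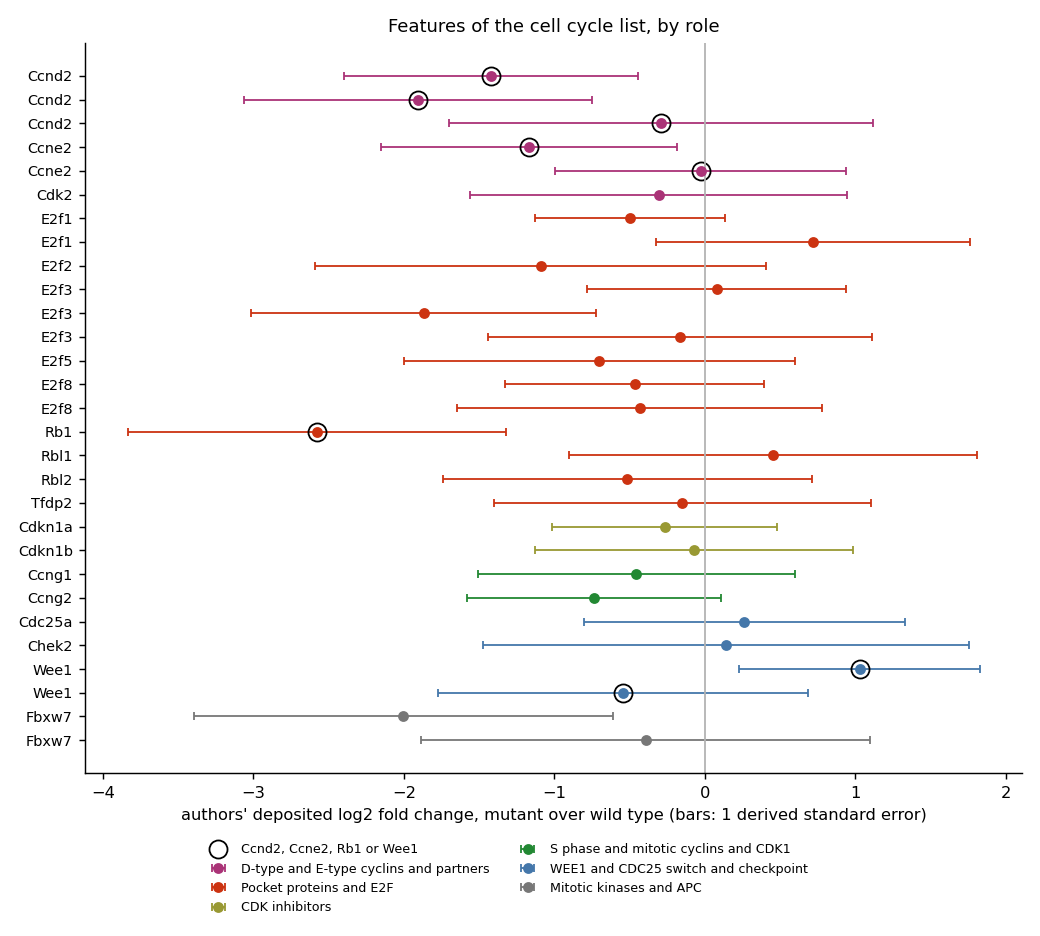
The authors' deposited log2 fold change (x axis, bars of 1 derived standard error) for the 29 features of the cell cycle list, by role, with Ccnd2, Ccne2, Rb1 and Wee1 ringed. Of the 29 features 23 lie below 0, beside 52.5% of all features, and Rb1 is lowest at -2.58.

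The features most like each member were found by the distance between log2 normalized reads over the 4 libraries, each centred on its mean, among 1419 features of other genes with at least 20 reads. Nearest to Ccnd2 feature 1 were features of Snapc1 and Prr14l, at 0.32 and 0.38 log2 units. Nearest to Ccnd2 feature 2 were Togaram1 and Zfp217, at 0.23 and 0.67. Ccne2 feature 1 was nearest to Trim37 and Sec22b (0.13 for each) and Ccne2 feature 2 to Zfp704 and Gnpnat1 (0.24 and 0.31). Rb1 was nearest to Evi2b and to Tmem50b (0.30 and 0.40). Tmem50b was read 307 (Wa), 221 (Wb), 26 (Ma) and 2 (Mb) times, a better-read case of the same order of libraries. Wee1 feature 1 was nearest to the kinase gene Sgk1 and to Rab8b (0.23 and 0.27), and Wee1 feature 2 to Rictor (0.08). Ccnd2 feature 3 was nearest to Dnajc13 and Atxn7 (0.77 and 0.79). With 4 libraries and so few reads on the mutant side, such likeness is a description only. Among the members themselves, Ccnd2 features 1 and 2 lay 1.39 apart, but Ccnd2 feature 3 lay 3.23 and 3.67 from them. Ccnd2 feature 3 has 12 reads, under the minimum of 20 set for neighbours, and was at 0 in Wb and Ma. Its distances therefore rest largely on the value added before the log. Ccne2 features 1 and 2 lay 3.74 apart and Wee1 features 1 and 2 lay 2.10 apart. Some features of different genes were closer: Ccnd2 feature 3 and Ccne2 feature 2 at 1.57, and Ccnd2 feature 2 and Wee1 feature 2 at 1.97. Ccne2 feature 1 and Rb1 were 2.14 apart.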

How the data were processed

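The data were 1 table of the authors' own comparison of 2 Bim3'UTRmut/mut and 2 wild-type libraries. Per the submitters' processing notes, CASAVA 1.8.2, BWA 0.7.12-r1039 and DESeq2 were used with builds mm9 and NCBIM37; for their settings, the definition of features and any removal of PCR copies: not given in the sources used here. Per the file headers, the table holds the authors' mean of size-factor-normalized reads (a signal over all 4 libraries), their log2 fold change, which is shrunken toward 0, and their unadjusted p-value, all as deposited. Direction comes from the table's name.

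Benjamini-Hochberg adjustment ran over all 2548 features at 0.05. Standard errors were derived from log2 fold change and p, assuming a Wald test. Since the deposited means are weighted sums of reads, whole reads were recovered for 2548 features, each with 1 solution (largest misfit 7.1e-13 normalized reads). Of 2325 simulated features 2325 were recovered, and 0 of 2165 shifted means had a solution. Size factors were 3.68 (Wa), 1.09 (Wb), 0.618 (Ma) and 0.452 (Mb). Sides were taken from the deposited signs, which the split used matched for 98.8% of features. Labels call the libraries of a genotype biological replicates. limma 3.58.1 (R 4.3.3) ran voom on recovered reads, tested on simulated data. RefSeq (GRCm38.p6) matched 2540 features and gave symbols.

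Named were every feature of the 4 genes, listed cell cycle genes with an unadjusted p under 0.05 or a direct partner role, and the 2 nearest features to each member; other genes were picked with their values known. A value that this rule names is not reported here. The members, lists and markers were chosen with earlier results of these data known.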

Additional observations from a re-analysis of the deposited data

How the results depend on the processing

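Of 54 alternative values over the 8 features, 47 kept the direction of the deposited log2 fold change, 7 reversed and 0 passed an adjusted p of 0.05. The 47 include the values among features at or above the median mean. Those repeat the deposited fold change with p adjusted anew, so their direction could not change. The reversals were at Ccne2 feature 2, at 0.61 with voom and the authors' size factors, 0.65 with voom and library totals and -0.76 to 1.82 with 1 library left out, and at Ccnd2 feature 3, at -1.34 to 2.09 with 1 library left out; the cause was not tested. Over all features, 0 passed by the deposited values, at an adjusted p of 0.1, among features at or above the median mean and by voom, but leaving out 1 library gave 0 to 356, the latter without Ma. Of the cell cycle list, 13 features lay below 0 among the 17 at or above the median mean, fewer because fewer were kept, and 17 of 29 without Mb. voom was chosen after seeing the data. The planned edgeR and DESeq2 fits on recovered reads were not run, since a check of units did not accept values derived from deposited means as counts. Only voom was fitted to the recovered reads. No paired analysis was possible because recovered libraries carry no replicate number.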

Other observations

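Some other features of the cell cycle list, named after their values were seen, were near the wild type in Ma and low in Mb. Ccng2, which encodes an unconventional cyclin, held 108 (Wa), 111 (Wb) and 100.4 (Ma) normalized reads but 24.3 in Mb, at -0.74 on the log2 scale in the authors' deposited table. The stronger feature of E2f8, a repressor of the E2F family, was at 45.4, 35.9, 45.3 and 11.1 in the same order, and Ccng1, a p53 target, at 14.7, 10.1, 14.6 and 2.21. A different order was seen at the stronger feature of Fbxw7, the substrate receptor of the ligase that degrades cyclin E. This feature was read 41 (Wa) and 4 (Wb) times in the wild type and 0 (Ma) and 1 (Mb) times on the mutant side. The other Fbxw7 feature, of nearly the same deposited mean, did not show this order. Its reads were 38 (Wa), 0 (Wb), 4 (Ma) and 0 (Mb), and its groups overlapped. None of these passed an adjusted p of 0.05 by Benjamini-Hochberg adjustment of the DESeq2 p-values.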
